A study of Saccharomyces cerevisiae with 5 samples.

Results

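Structural mannoproteins form the outer layer of the yeast cell wall, and 10 of their genes are described here: PIR1, PIR3, HSP150 and CIS3 of the PIR family, and CWP1, CWP2, CCW12, CCW14, SED1 and TIR1, whose products are made with a glycosylphosphatidylinositol (GPI) anchor. The members were found by gene symbol in the annotation of the arrays, and all 10 were on both kinds of array, among 5583 genes in all. Saccharomyces cerevisiae RNA recovered with zz-tagged Yra1, an adaptor of nuclear mRNA export, was hybridised as cDNA on spotted arrays with 2 channels against RNA recovered with the zz tag by itself. The 5 arrays are 1 group, numbered 1 to 5. Channel 2 held the tagged Yra1 sample on arrays 1, 2 and 5, and channel 1 held it on the other arrays. The sources used here do not give the yeast strain, the allele of YRA1 that the cells carried, the promoter of the tagged gene or the growth medium. Nor do they say whether the arrays came from separate cultures, so p-values measure the spread between arrays, which may be technical.

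PIR proteins carry internal repeats and are bound to wall glucan through an alkali-sensitive linkage. GPI proteins receive a lipid anchor in the endoplasmic reticulum, and at the cell surface most of those described here are transferred from the anchor to wall glucan. Both kinds are secreted, heavily mannosylated on the way, and encoded by mRNAs that are abundant in growing cells or induced by stress. The mRNAs must leave the nucleus before they are translated at the endoplasmic reticulum. Yra1 binds mRNA in the nucleus and hands it to the export receptor Mex67.

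Each value below is a log2 ratio of the channels, taken as the mean of a gene's spots and set to 0 at the median gene of its array. Which sample was the numerator is not stated and could not be settled from the data. A positive value therefore says that a gene lay above the median gene in the deposited direction, and does not say which sample held more of the RNA. Over all genes the ratios of different arrays were unrelated, with Pearson's r between -0.08 and 0.05 for the 10 pairs of arrays. Array 4 was the most variable, with a standard deviation over spots of 2.51 log2 units against 0.96 to 1.17 on the others. No intensities were used here, so nothing is known of the signal behind a ratio, and precision is limited by having 5 arrays. YRA1 itself had a value on array 3 (0.63) and on no other array, which gives no check of the labels, and MEX67 had values on arrays 1 (-1.07) and 3 (0.16).

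Mannoprotein genes had a deposited ratio more often than genes at large. On array 1, 8 of the 10 had a value, where 44.3% of all genes did. On array 2 it was 10 of 10 against 51.1%, on array 4 it was 6 of 10 against 23.9%, and on array 5 it was 7 of 10 against 19.8%. Array 3 gave a value for nearly every gene (97.6%), the 10 members included. Across arrays, CIS3, HSP150, CWP2, CCW12 and CCW14 were measured on all 5, which held for 2.62% of all genes, and with SED1 6 of 10 were measured on at least 4, against 13.0%. PIR1, PIR3, CWP1 and TIR1 had values on 3 arrays each. These shares are descriptions, since the members were chosen with earlier results of these data known.

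**Figure D1:**
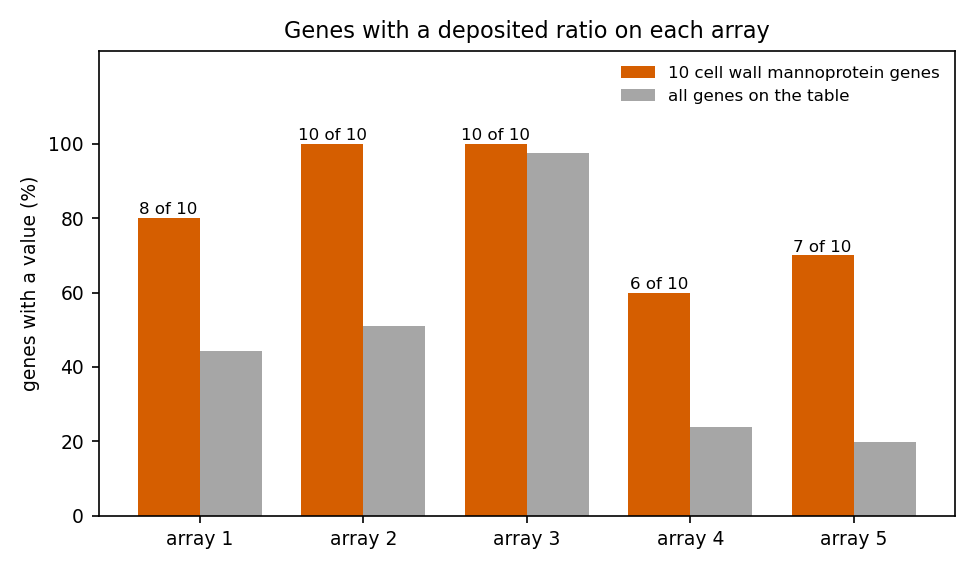
Share of genes with a deposited ratio on each array (vertical axis, percent), for the 10 mannoprotein genes (orange, with the count above each bar) and for all genes on the table of that array (grey). The orange bar is taller on every array, by the least on array 3, where 97.6% of all genes had a value.

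Part of this contrast on arrays 1 and 2 moves with the number of spots. Of the 10 members 6 had 2 spots there, while 19.8% of all genes had 2 or more. Counted by spot, 11 of 16 member spots had a value on array 1 (68.8%, against 40.4% of all spots with a gene symbol) and 14 of 16 on array 2 (87.5% against 46.5%). Arrays 4 and 5 gave every member 2 spots, and 11 of 20 member spots (55% against 20.1%) and 13 of 20 (65.0% against 16.5%) had a value. The contrast was thus present spot by spot on these 4 arrays. Whether it reflects the brightness of the spots was not tested. Both families were measured at similar rates: 3 of 4 PIR and 5 of 6 GPI genes on array 1, 4 of 4 and 6 of 6 on arrays 2 and 3, 2 of 4 and 4 of 6 on array 4, and 3 of 4 and 4 of 6 on array 5.

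Among the PIR genes, CIS3 and HSP150 had the most complete data. CIS3, which encodes a mannosylated wall glycoprotein, lay at 0.16, -0.01, 2.35, 1.88 and -1.51 on arrays 1 to 5. It was near the median gene on arrays 1 and 2, high on array 3 and low on array 5. On array 4, which shares the orientation of array 3, it was above the median gene but less extreme for its array. Its value exceeded that of 99.8% of the measured genes on array 3, 78.4% on array 4 and 6.82% on array 5. HSP150, which encodes a secreted protein induced by heat shock, lay at -0.51, 1.05, -2.42, 1.46 and -0.90. It was above the median gene on arrays 2 and 4 and below it on the others. The share of genes that were lower was 88.2% on array 2 and only 0.973% on array 3. On array 4 it was 74.0%, since values of this size were common there.

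HSP150 and CIS3 are neighbours in the genome, with no other gene between them in the R64 reference gene table. They lay at opposite ends of array 3 (-2.42 and 2.35) but on the same side on array 4 (1.46 and 1.88) and on array 5 (-0.90 and -1.51). The labels give arrays 4 and 5 a single day, and the orientation of these arrays is opposite, as was the sign of both genes. CWP2, CCW12 and CCW14, the other members measured on arrays 4 and 5, kept their sign between them. Of all spots with a gene symbol measured on both arrays, 50.5% lay on the same side of the median gene.

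PIR1 and PIR3, a second pair of adjacent genes that encode closely related repeat proteins, were measured on fewer arrays. PIR1 lay at 0.71, -0.69 and -0.92 on arrays 2, 3 and 5. PIR3 lay at 0.29, 0.57 and -0.02 on arrays 1 to 3. Both were above the median gene on array 2 and below it on array 3. Related coding sequences can bind the same cDNA, so values of the PIR genes need not be independent, and how far they share signal was not tested.

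The GPI genes spread as widely. CWP2, which encodes a major small mannoprotein of the wall, lay at -0.39, -0.05, -3.37, 0.62 and 0.12 on arrays 1 to 5. It was within 1 log2 unit of the median gene on 4 arrays, and on array 3 only 0.275% of genes were lower. Its genomic neighbour CWP1, whose product is found at the birth scar of daughter cells, lay at 0.85, 0.59 and 0.76 on arrays 1 to 3, where CWP2 was negative each time. CWP1 had no value on arrays 4 and 5. In the deposited direction the 3 values of CWP1 have the smallest spread of any member (SD 0.13), but with the signs of arrays 3 and 4 turned their SD is 0.86 and that of PIR3 is the smallest (0.27). The spots behind the values of CWP1 differed.

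CCW12 encodes an abundant protein that stabilises newly made wall. It lay at -0.37, 1.27, -0.96, 0.17 and 0.42, with its highest value on array 2, above 91.2% of genes, and its lowest on array 3. CCW14, which encodes a protein of the inner wall layer, lay at -1.51, 0.12, -0.09, -1.59 and -1.70 on arrays 1 to 5. It was near the median gene on arrays 2 and 3 and low on the others: 0.565% of genes were lower on array 1 and 4.28% on array 5, but 26.5% on array 4, where values of this size were common. Among the arrays with tagged Yra1 in channel 1, CCW14 was thus low on array 4 and not on array 3. Its spots on array 4 lay at 0.01 and -3.19, and on array 1 only 1 of its 2 spots had a value.

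SED1, whose product is the main wall protein of stationary cells, lay at 0.64, -0.27, -0.17 and 0.86 on arrays 1, 2, 3 and 5, within 1 log2 unit of the median gene each time. TIR1, of the serine-rich wall proteins induced by cold and by lack of oxygen, lay at 1.01, 0.31 and 2.69 on arrays 2, 3 and 4. In the deposited direction TIR1 and CWP1 were the members with every value above 0, and no member had every value below 0. With the signs of arrays 3 and 4 turned, TIR1 was above 0 on 1 of 3 arrays, CWP1 on 2 of 3 and PIR3 on 3 of 3. Of 41 values in all, 22 were above the median gene of the array and 19 below.

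**Figure D2:**
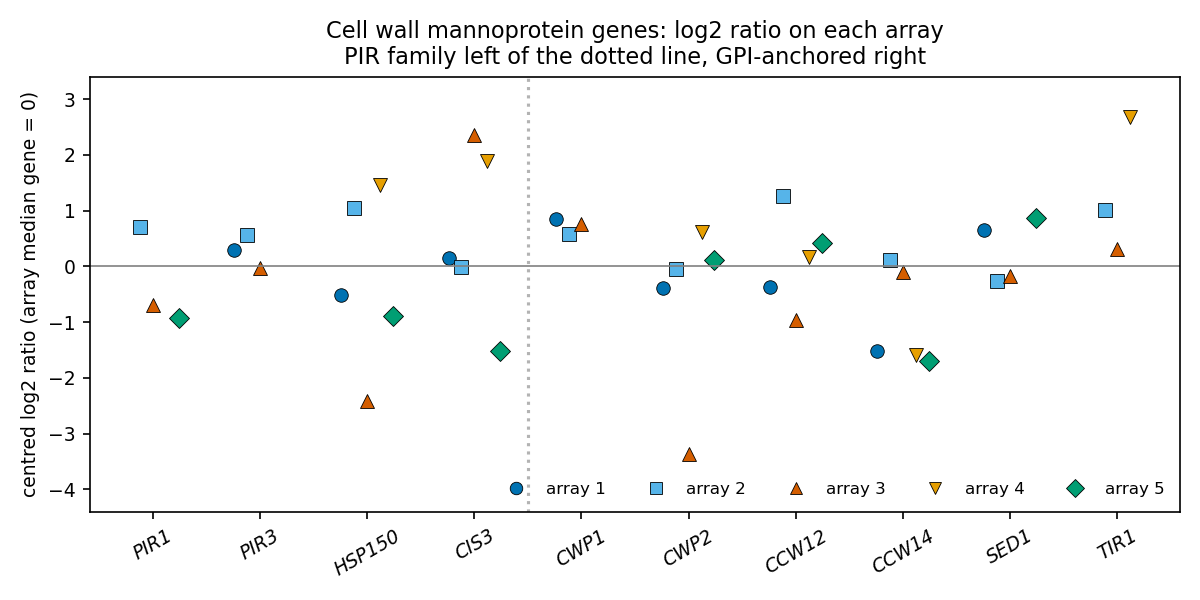
Centred log2 ratio (vertical axis, median gene of the array at 0) of each mannoprotein gene on arrays 1 to 5, 1 point per array with a value and no error bars, PIR genes left and GPI genes right of the dotted line. The points of array 3 hold both the lowest value (CWP2, -3.37) and a high one (CIS3, 2.35).

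The members lay in the tails of array 3 more often than on the other arrays. Beyond 2 log2 units from the median gene were 3 of 10 members there (CWP2, HSP150 and CIS3), against 2.86% of all genes measured on that array. Counted by spot it was 7 of 16, 5 of them low and 2 high, against 4.20% of all spots with a gene symbol. On arrays 1, 2 and 5 no member was beyond this limit, where 4.68%, 3.61% and 8.28% of genes were. On array 4 it was 1 of 6 (TIR1) against 41.1% of genes. The limit of 2 was chosen after the values were seen, and array 3 is a single hybridisation.

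The PIR and GPI families did not separate in the same direction from array to array. The median PIR gene lay at 0.16, 0.64, -0.36, 1.67 and -0.92 on arrays 1 to 5 and the median GPI gene at -0.37, 0.35, -0.13, 0.39 and 0.27. The difference between them, PIR minus GPI, was 0.53, 0.29, -0.23, 1.28 and -1.19 in the deposited direction, positive on 3 arrays and negative on 2. With the signs of arrays 3 and 4 turned, it was positive on arrays 1 to 3 and negative on arrays 4 and 5. The array on which they differed most in the positive direction, array 4, holds 2 PIR genes with a value, and array 5, on which all 3 measured PIR genes were below the median gene, has the opposite orientation. Array 4 also had the widest spread. With the arrays scaled to equal spread the differences were 1.10, 0.55, -0.38, 0.77 and -1.65 on arrays 1 to 5. Array 1 was then the most positive. Over all measured members the medians were -0.11, 0.58, -0.13, 1.04 and -0.90. On array 2, 7 of 10 members were above the median gene and on array 4 5 of 6, while on array 3 it was 3 of 10.

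Members with repeated spots show how much of this can be read from arrays 1 to 3. On these arrays the 2 spots of a gene stand far apart, and over all genes with 2 measured spots their ratios were unrelated: Pearson's r across genes was 0.03 on array 1 (225 genes), 0.11 on array 2 (258 genes) and -0.03 on array 3 (1022 genes). Whether a spot had a value was nearly unrelated too. On array 2 the second spot was measured for 43.0% of genes whose first spot was measured and for 41.8% of the others, and on array 1 these shares were 62.8% and 56.3%. On arrays 4 and 5, where the spots of a gene are adjacent, r was 0.80 (909 genes) and 0.86 (731 genes). Genes are no replicates, so r is given as a description, and the cause of the disagreement was not tested.

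The repeated spots of mannoprotein genes disagreed too. PIR3 lay at 2.23 at its first spot and at -2.28 at its second on array 3, a gap of 4.52 log2 units that was larger than for 99.8% of genes, so the -0.02 given above is the mean of opposite values. CWP1 had 2.26 and -0.56 on array 1, 0.53 and 0.64 on array 2, and 0.20 and 1.32 on array 3. CCW12 had 0.62 and -1.36 on array 1 and 0.60 and -2.52 on array 3. CWP2 had -1.31 and 1.21 on array 2 but -2.73 and -4.01 on array 3, so that its low value on array 3 was shared by both spots. CCW14 had -1.31 and 1.12 on array 3.

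Over arrays 1 to 3 the members gave 13 pairs of measured spots, with a median gap of 1.98 log2 units, where the median gaps over all genes were 0.86, 0.75 and 1.03 in array order. Members' gaps were thus wider, without a test of the difference. In 7 of 13 the spots lay on opposite sides of the median gene. On all genes of these arrays that share was 53.8%, 52.3% and 49.4%. On arrays 4 and 5 there were 11 pairs, with a median gap of 0.30 (0.45 and 0.28 over all genes), and 2 of 11 lay on opposite sides. The widest of these was CCW14 on array 4, at 0.01 and -3.19. The values of CIS3, HSP150, SED1 and TIR1 on arrays 1 to 3 rest on a single spot each. So do those of PIR1 on arrays 2 and 5, CWP2 and CCW14 on array 1, CCW12 on array 2 and TIR1 on array 4. In these cases 1 of 2 spots was measured.

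**Figure D3:**
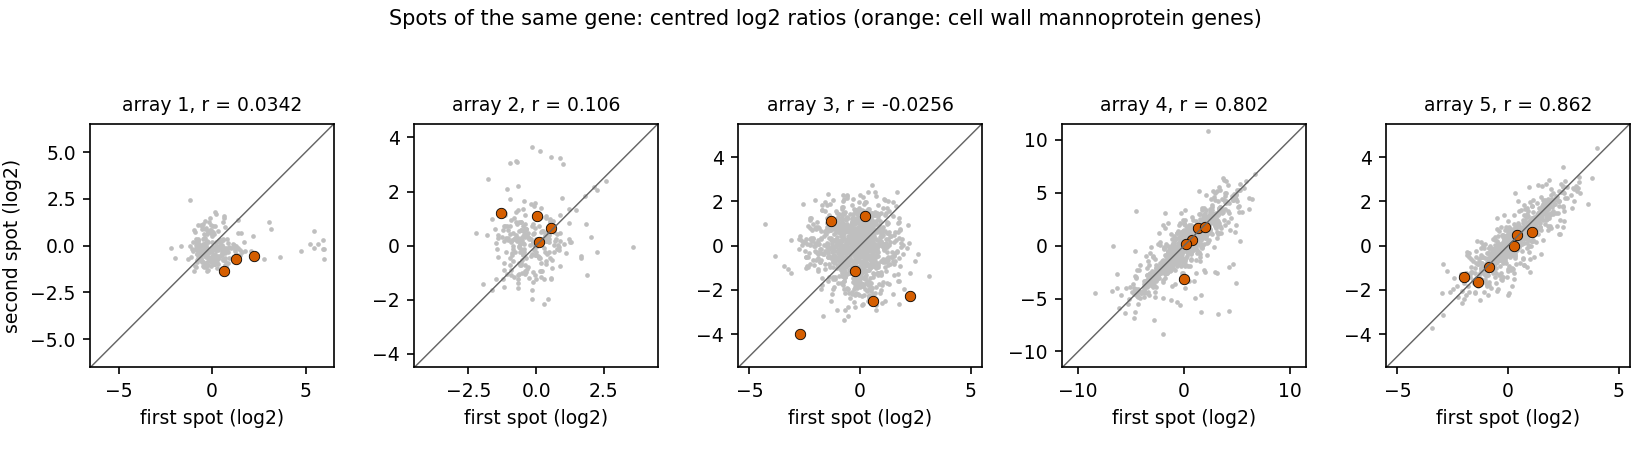
Centred log2 ratio of the first (horizontal) against the second (vertical) spot of a gene, 1 panel per array, for all genes with exactly 2 spots and both measured (grey) and for mannoprotein genes (orange), with the line of equality and axes that differ in range between panels. On arrays 1 to 3 the points form a round cloud (r of 0.03, 0.11 and -0.03), and on arrays 4 and 5 they follow the line (0.80 and 0.86).

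The question of the design is which RNAs were recovered differently with tagged Yra1 and with the tag alone, and for the 6 members measured on at least 4 arrays it was tested in limma with the genes of the whole table. The model gave 2 readings. In the same-channel reading every deposited ratio has the same channel as numerator, and in the turned reading the authors had already turned the ratios to the same sample. No gene of 725 passed an adjusted p of 0.05 in either reading (0% each), and so none of the 6 members did. In the same-channel reading 19 genes had an unadjusted p under 0.05, CIS3 being the only member among them, and in the turned reading 25 genes did and no member.

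CIS3 was the member farthest from 0, at -1.29 ± 0.47 log2 units (SE, limma) in the same-channel reading, with an unadjusted p of 0.023 and an adjusted p of 0.905. With the signs of arrays 3 and 4 turned it was negative on 4 of 5 arrays. Set against the spots around it on the slide in place of the array median, CIS3 lay at -0.44 ± 0.58 (limma adjusted p = 0.928), with an interval that included 0. CIS3 had no such value on array 5, so this fit and the one that gave -1.29 do not use the same arrays. On array 4 CIS3 moved from 1.88 to -0.70, and on array 3 from 2.35 to 2.30. In the turned reading it lay at 0.83 ± 0.47 (limma adjusted p = 0.903). CWP2 lay at 0.64 ± 0.60 and -0.74 ± 0.60 in the 2 readings, and HSP150 at 0.18 ± 0.63 and -0.30 ± 0.63. CCW12 lay at 0.42 ± 0.48 and 0.02 ± 0.48, CCW14 at -0.10 ± 0.50 and -0.94 ± 0.50, and SED1 at 0.29 ± 0.60 and 0.12 ± 0.60.

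Of the 6, 4 were positive in the same-channel reading and 3 in the turned one, where 52.6% and 54.1% of all genes were. The median member lay at 0.24 and -0.14, and the median of all 725 genes at 0.06 and 0.07. The median 95% interval over all genes reached 1.32 log2 units to either side. The median SD of a gene over its arrays was 1.06 log2 units, and CWP2 (1.58), HSP150 (1.57) and CIS3 (1.56) lay above it while CCW14 (0.89), CCW12 (0.84) and SED1 (0.57) lay below. With the signs of arrays 3 and 4 turned the median was 1.05, and CCW14 lay above it, at 1.35.

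**Figure D4:**
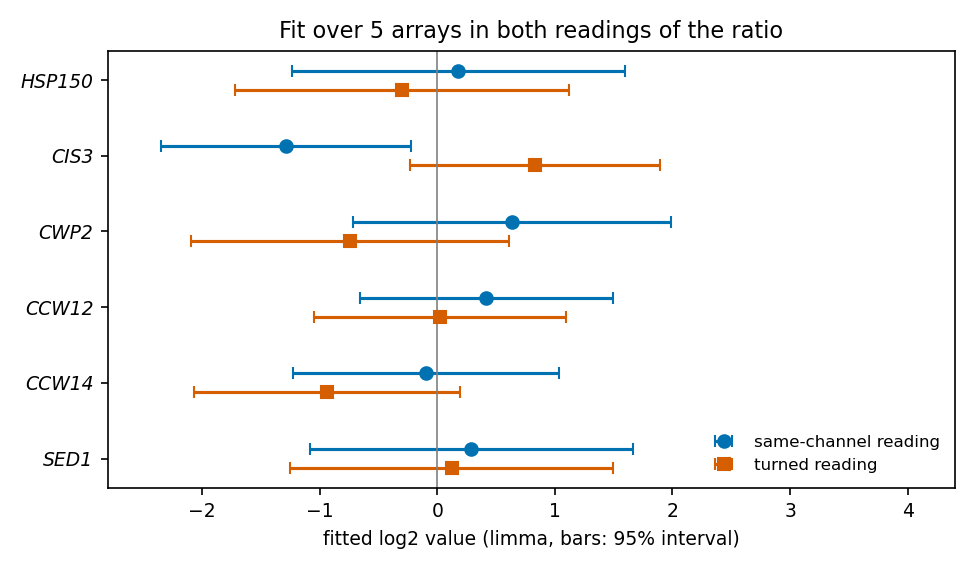
Fitted log2 value (horizontal axis) of the 6 mannoprotein genes measured on at least 4 arrays, in the same-channel reading (blue circles) and the turned reading (orange squares), with 95% intervals from limma. All intervals include 0 except that of CIS3 in the same-channel reading, at -2.35 to -0.22, before adjustment for 725 genes.

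Single arrays decided several of these values. Without array 3, CWP2 lay at -0.36 and 0.26 in the same-channel and turned readings and HSP150 at -0.79 and 0.67, each with its sign reversed, while CIS3 lay at -1.17 and 0.71. Values near 0 changed sign more easily: CCW14 in the same-channel reading did so without array 1, 3 or 5, and HSP150 in that reading without array 2. CCW12 in the turned reading did so without array 2 or 4. Other values kept their sign but moved: CCW12 in the same-channel reading to 0.13 without array 3, and CCW14 in the turned reading to -0.56 without array 4. Without array 3 or array 4, a single array with tagged Yra1 in channel 1 was left. The model matched that array exactly, so its spread did not enter the error, and calls from these fits are not named or read as results. Without array 2 limma gave 1 call in the same-channel reading, THI11. This gene is no member and was named after its value was seen.

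Arrays of one orientation need no choice of reading. Over arrays 1, 2 and 5, 281 genes were measured on all 3 and none was called (0%), with 6 members tested. CCW14 was the member farthest from 0, at -1.03 ± 0.50 (limma adjusted p = 0.821). Over arrays 3 and 4, 1300 genes were tested and none was called (0%), with CIS3 at 2.12 ± 1.36, TIR1 at 1.50 ± 1.36 and CWP2 at -1.38 ± 1.36 (limma adjusted p of 0.966 to 0.969). A single SE is shared there because the test pooled its spread over all genes.

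Genes that act with the mannoproteins were fitted among the same 725 genes, none of which passed (0%), so no list could hold a call. Of 25 other structural wall protein genes 6 were measured on at least 4 arrays, 0 passed, and 2 were positive in the same-channel reading and 3 in the turned one. The order of these genes depended on the reading. TIR2 (0.55 ± 0.68) and ECM33 (0.46 ± 0.71) were highest in the same-channel reading and lowest in the turned one, at -0.63 and -0.64. SPI1 (-0.42 ± 0.54) and YGP1 (-0.20 ± 0.62) were lowest in the same-channel reading and positive in the turned one, at 0.59 and 0.82. Of the mannosyltransferases and their partners, which build the sugar chains of these proteins, 4 of the 32 on the arrays could be fitted and 0 passed. OCH1, which starts the outer mannan chain, lay at 0.96 ± 0.57 in the same-channel and -1.12 ± 0.57 in the turned reading, highest and then lowest of the 4. DPM1, which makes the mannose donor dolichol phosphate mannose, lay at -0.51 ± 0.52 and -0.13 ± 0.52. Of the genes of GPI anchor assembly and attachment, 5 of 27 were fitted and 0 passed. They ran from GPI14 (-1.13 ± 0.60) to GUP1 (0.27 ± 0.49) in the same-channel reading and from GPI14 (-0.44 ± 0.60) to GPI11 (0.85 ± 0.70) in the turned one, and GPI11 lay at -1.08 in the former. Of cell wall integrity signalling, which controls wall genes under stress, 3 of 20 were fitted and 0 passed, with the sensor gene MTL1 at 0.47 ± 0.67 and -0.74 ± 0.67 in the same-channel and turned readings and the transcription factor gene SWI6 at -0.80 ± 0.74 and 0.72 ± 0.74, both with opposite signs.

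How often the related genes had a value differed between the lists. Of all genes, 44.3%, 51.1%, 97.6%, 23.9% and 19.8% had a value on arrays 1 to 5. On arrays 1 to 5, 40.6%, 43.8%, 96.9%, 12.5% and 15.6% of the mannosylation genes had one, each below the share of all genes. For the other structural wall protein genes these shares were 60.0%, 52.0%, 100%, 28.0% and 32.0%, each above it. The genes of anchor assembly (51.9%, 44.4%, 96.3%, 29.6% and 18.5%) and of integrity signalling (40%, 65%, 95%, 35% and 20%) lay on both sides of it. Several of these gaps were small, as for the other structural wall protein genes on array 2 and the mannosylation genes on array 3. On array 3, 5 of the 25 other wall protein genes lay beyond 2 log2 units, TIR2 at -3.51, TIR4 at -3.11, FIG2 at -2.68, FLO11 at -2.38 and SPI1 at 2.49, against 2.86% of all genes. These 5 genes were picked out by their values. The lists of mannosylation, anchor assembly and integrity signalling had 1 of 31, 1 of 26 and 2 of 19 genes beyond this limit.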

How the data were processed

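The deposited values are log10 ratios of the channels of spotted 2-channel arrays, in 2 tables of 7680 spots (arrays 1 to 3) and 12800 spots (arrays 4 and 5). The sources used here do not give the scanner, dyes, background correction or reason for missing values. The base of the deposited log10 values was inferred: among 400 values from each array, 27.0% to 93.8% became a ratio of whole numbers (denominator at most 3000, relative tolerance 5e-09) as powers of 10, against at most 4.50% for base 2 and 8.25% for base e. Values were multiplied by 3.32 to give log2, the mean of a gene's spots was taken, and the median gene of each array was set to 0, with no further normalisation. Symbols came from the platform annotation, updated through gene identifiers to the R64 table (5578 of 5583 and 5534 of 5539 genes matched). Repeated rows of 4 spot numbers were averaged and 1 row without a spot number was dropped.

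Genes with a value on at least 4 arrays were fitted in limma 3.58.1 (R 4.3.3) on an intercept (turned reading) and the orientation (same-channel reading), without imputation. Benjamini-Hochberg adjustment ran over all genes fitted, with a threshold of 0.05. Arrays of one orientation were fitted on genes measured on all of them. The members and gene lists were chosen with earlier results of these data known. The genes named are the members, YRA1, MEX67, up to 2 of the highest and 2 of the lowest fitted genes of a pathway list in the same-channel reading, and genes said to be named after their values were seen. Alternatives covered the centring, scale, filter, spot averaging, slide position, orientation term, tables and each array in turn (genes measured on 3 or more remaining arrays). Use of only the lowest or highest spot number of a gene on arrays 1 to 3, and counts of often-measured members without each array, were chosen after seeing the data.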

Additional observations from a re-analysis of the deposited data

Results flagged for a closer look

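A single array stood apart in 3 of the 18 sets of values examined, each over 4 or 5 arrays. By chance about 1 in 20 would do so, or 0.9 of 18. Each gene entered as deposited and again with the signs of arrays 3 and 4 turned, so the sets are not independent. Both flags of CWP2 rest on the same value. CWP2 stood apart on array 3 at -3.37, and with the signs of arrays 3 and 4 turned at 3.37, because its 4 other values lay within 1 log2 unit of the median gene. Both of its spots on that array were low, at -2.73 and -4.01. On the 6 spots nearest to the lower of them by number the values lay between -1.14 and 0.12, the lowest being the second spot of PIR1. The standard deviation over spots stood apart on array 4, at 2.51 log2 units against 0.96 to 1.17 on the others.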

How the results depend on the processing

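No member was called by limma in any fit made, and the 6 members kept their sign in 163 of 184 comparisons with the main value. Sign reversals outside the omission of arrays were as follows. Against slide neighbours, where it had no value on array 5, CCW12 lay at -0.52 (same-channel). With the lowest spot numbers CCW14 lay at 0.20 (same-channel), and with the highest CCW12 at -0.54 (turned). With equal spread and with the table of arrays 1 to 3 alone CCW12 lay at -0.0034 and -0.021 (turned). Without centring CWP2 and HSP150 lay at 0.19 and 0.63 (turned). With the table of arrays 4 and 5 alone CWP2 lay at -0.25 and 0.37 and HSP150 at -1.18 and 0.28 (same-channel and turned).

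When single arrays were left out, the same-channel values ranged from -0.47 to 0.28 for CCW14, -0.36 to 1.63 for CWP2, -0.79 to 1.15 for HSP150 and 0.13 to 0.70 for CCW12, and the turned values from -0.26 to 0.31 for CCW12, -1.74 to 0.26 for CWP2, -1.27 to 0.67 for HSP150, -1.31 to -0.56 for CCW14 and 0.0091 (without array 5) to 0.29 (without array 2) for SED1. Counts of calls ranged from 0 to 68 (same-channel) and 0 to 80 (turned), and were 0 throughout for arrays 1, 2 and 5. Counts above 1 came only from the fits without array 3 or array 4. Each of these fits left a single array with tagged Yra1 in channel 1, whose spread did not enter the error. Counts from these fits are therefore not read as results. With equal spread 1 gene was called over arrays 3 and 4, BGL2. The number of members measured on at least 3 of the remaining arrays was 6 to 9, where 13.2% to 34.3% of all genes were (13.0% in the count over 5 arrays). The PIR minus GPI difference became -0.48 on array 4 and 0.028 on array 5 against slide neighbours. That value on array 5 compares 1 PIR gene with 2 GPI genes, where the main value compared 3 with 4. With the lowest spot numbers the difference became -0.47 on array 1 and 0.98 on array 3, and with the highest -1.78 on array 3. Its sign also turned, by less than its SD over arrays, on array 3 with family means (0.39), on array 2 with the lowest spot numbers (-0.07) and on array 1 with the highest (-0.03). The cause of these shifts was not tested. The day as a random block could not be estimated, because 1 pair of arrays shares a day. No paired analysis was possible because the arrays form 1 group.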

Other observations

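Set side by side spot by spot, the members on arrays 1 and 3 lay on the same side of the median gene at 9 of 11 spots measured on both, where 49.5% of all named spots did. On arrays 1 and 2 it was 2 of 10 (47.5% of all named spots), on arrays 2 and 3 it was 7 of 14 (49.8%), and on arrays 4 and 5 it was 4 of 10 (50.5%). The first and second spots of PIR3 and of CCW12 each had the same order on arrays 1 and 3, the first above 0 and the second below it. Arrays 1 and 3 have opposite orientations, and spots of 1 gene and of related genes are not independent, so these counts are descriptions made after the values were seen.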
